A study of Mus musculus with 12 samples.

Results

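The 9 Pax transcription factor genes (Pax1 to Pax9) were examined in 2 lists of genomic sites bound by MOF in mouse visceral white adipose tissue. Each gene was located by its symbol in the GENCODE mouse M21 annotation, and the members are thus 9 of 21938 protein-coding genes. A peak was assigned to a Pax gene if it overlapped the gene body or lay within 3 kb of any annotated start site, which gave 27 of the 19773 peaks in the Mof+/+ list and 8 of the 731 peaks in the Mof+/- list.

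MOF (also called KAT8) is an acetyltransferase that acts on lysine 16 of histone H4. Its binding was measured by chromatin immunoprecipitation and sequencing (ChIP-seq), in which DNA crosslinked to MOF is pulled down with an antibody and compared with unselected input DNA. The labels describe 12 libraries in 6 groups of 2, namely MOF ChIP, histone H3 ChIP and input, each from Mof+/+ and from Mof+/- C57BL/6 mice that were 8 weeks old and fed a standard diet. Mof+/- animals carry 1 functional Mof allele in every cell of the body, so the tissue was not depleted of MOF in a single cell type. Both lists are the authors' own calls, 1 list per genotype, and which libraries entered each list is not stated. The listed values therefore have no replicate error, and no test between genotypes was run on them. The H3 data were not analysed here. The design text mentions 3 Mof+/- animals where the labels give 2, and the MOF antibody named in the labels differs from those in the study's reporting summary.

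Pax proteins bind DNA through a paired domain, and several also carry a complete or partial homeodomain. They are grouped by structure into Pax1 and Pax9, Pax2, Pax5 and Pax8, Pax3 and Pax7, and Pax4 and Pax6. The family is known for setting up organs in the embryo, among them kidney, thyroid, eye, pancreas, vertebrae and muscle, while Pax5 maintains the identity of B cells. Their best-known roles thus lie outside fat cells, and white adipose tissue also holds immune, vascular and mesothelial cells.

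In the Mof+/+ list 6 of the 9 Pax genes had a peak, and in the Mof+/- list 3 had one. Over all protein-coding genes the same rule gave 44.5% in the Mof+/+ list (9773 genes) and 1.89% in the Mof+/- list (415 genes). The 27 Mof+/+ peaks were unevenly shared: Pax5 had 14, Pax6 had 7, Pax3 and Pax9 had 2 each, Pax2 and Pax7 had 1 each, and Pax1, Pax4 and Pax8 had none. The 8 Mof+/- peaks lay at Pax5 (3), Pax6 (3) and Pax3 (2). Within 1 kb of a start site, peaks were listed at 4 Pax genes in Mof+/+ (Pax2, Pax3, Pax5 and Pax6), against 41.0% of coding genes, and at 3 in Mof+/- (Pax3, Pax5 and Pax6), against 1.32%. Long genes offer more bases for a peak to fall in. Of the 5 Pax genes of 50 kb or longer, 4 had a Mof+/+ peak and 2 a Mof+/- peak, and the shares over the 5007 coding genes of that length were 51.9% and 2.00%. Of the 6 Pax genes with a Mof+/+ peak, 3 also had a Mof+/- peak, whereas 4.06% of the 9773 coding genes with a Mof+/+ peak did.

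**Figure D1:**
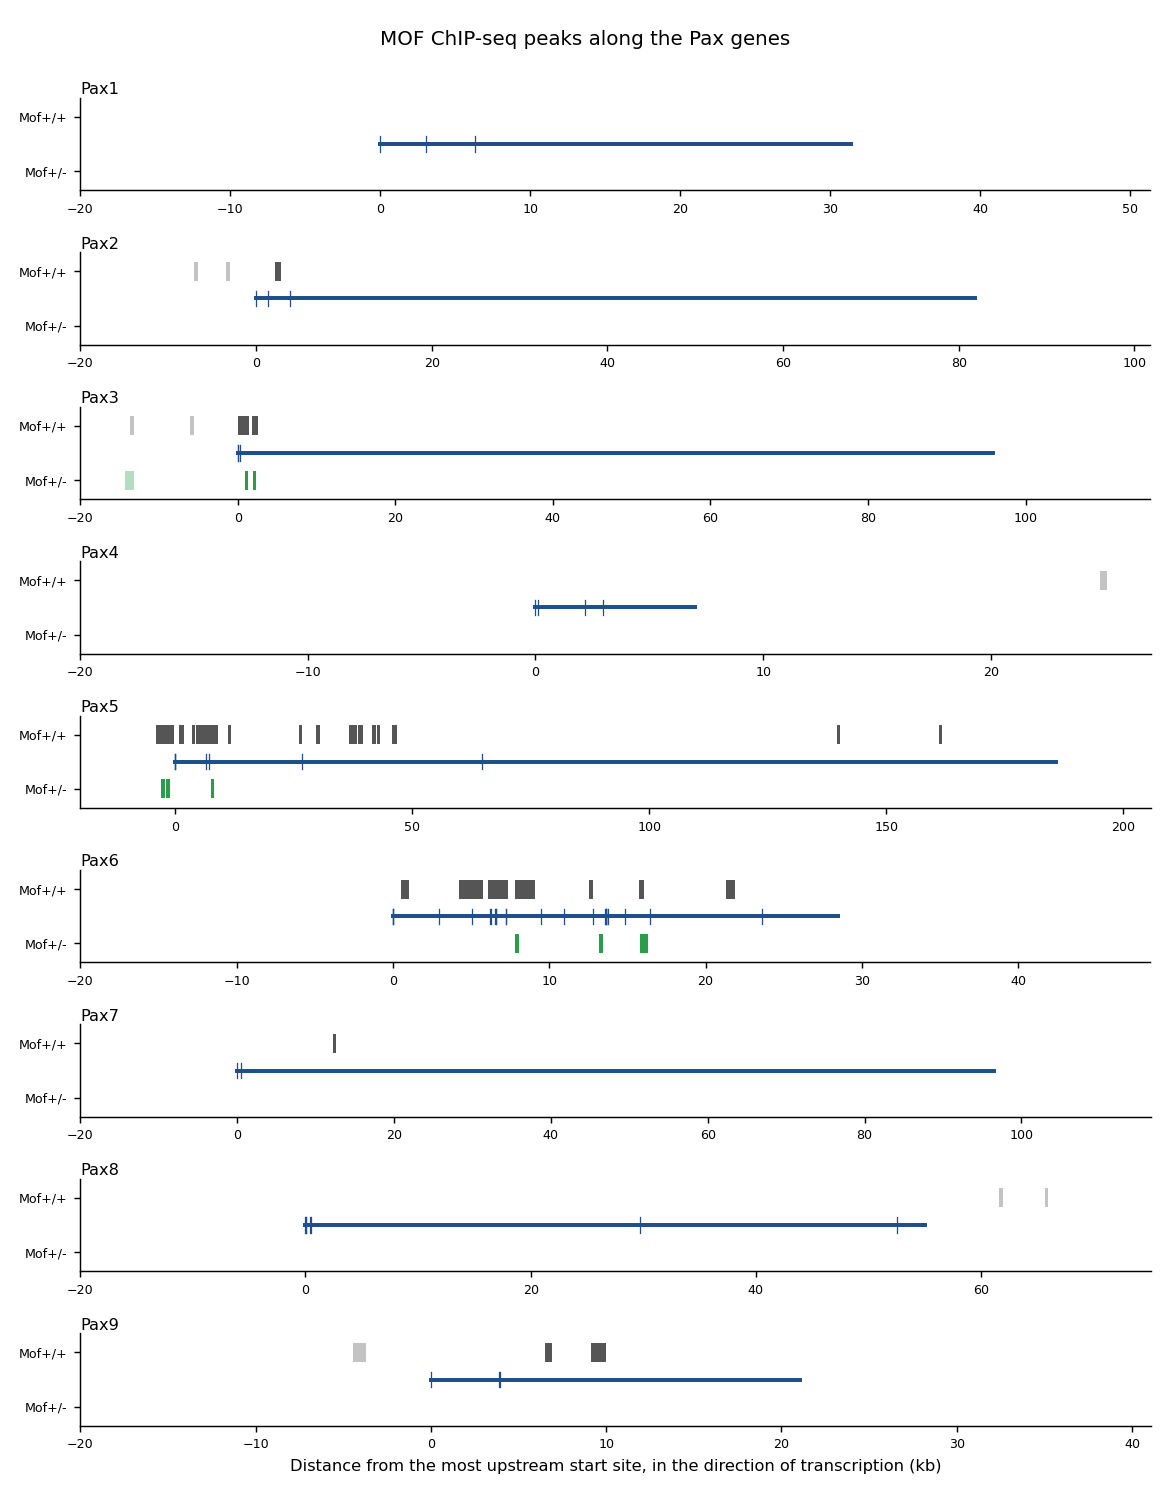
Peaks along the 9 Pax genes. The horizontal axis is the distance in kb from the most upstream start site, read in the direction of transcription, with its own scale for each gene. The blue line is the gene body, vertical ticks are annotated start sites, grey blocks are Mof+/+ peaks and green blocks Mof+/- peaks, with pale blocks for peaks outside the assignment rule. Narrow peaks are drawn at a minimum width. Pax5 and Pax6 carry most of the blocks, and Mof+/- blocks stand only at Pax3, Pax5 and Pax6, plus 1 pale block upstream of Pax3.

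Pax5 (ENSMUSG00000014030.15, chromosome 4, 44524757 to 44710487, minus strand, GRCm38), the commitment factor of the B cell lineage, carried the most MOF peaks of the family. Its 14 Mof+/+ peaks covered 17009 bp. In all, 58 coding genes (0.264%), Pax5 included, had at least 14 Mof+/+ peaks, and 35 (0.160%) had as many covered bases. Pax5 is also the longest Pax gene at 185731 bp, and per 100 kb of gene it had 7.54 Mof+/+ peaks.

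The peaks at Pax5 fell into an upstream and 5′ group and an intronic group. Fold enrichment is the ratio that the authors' peak caller, MACS2, gives for ChIP fragments over the input background at the summit. The summit is the highest point of a peak, and the same small constant is added to both values before division. The widest peak of the family (44701530 to 44706071, 4542 bp) spanned the second group of Pax5 start sites, with a fold enrichment of 3.77 and 29 fragments at its summit. Its width was above that of 99.1% of all Mof+/+ peaks. The peak upstream of the first start site (44710705 to 44714570) was 3866 bp wide, ended 218 bp short of that start site, and had a fold enrichment of 5.53 with 26 fragments. Both were above the median CpG density of all Mof+/+ peaks, at 51.7 and 48.9 CpG sites per kb against 24.5. They were below the upper quartile of 62.9. A further 2 Mof+/+ peaks in the first 10 kb of the gene were CpG-poor, at 3.33 and 8.20 CpG sites per kb, with fold enrichments of 3.02 and 2.35.

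Further into Pax5 lay 10 Mof+/+ peaks that covered 7334 bp. Intron 5, which is known to hold an enhancer active in B cells, contained 5 of them. The strongest (44670744 to 44671843) reached a fold enrichment of 5.53 with 24 fragments, a value above 94.1% of the Mof+/+ list. The other 4 in intron 5 had fold enrichments of 4.20, 3.10, 4.11 and 4.06. Of the 5, 4 were below the Mof+/+ median in CpG density, at 9.09 to 16.9 sites per kb. The one at 44663669 to 44664742 had 81.9 CpG sites per kb, the highest density at any Pax gene. The remaining intronic peaks lay in introns 1, 3, 4, 7 and 8 and had fold enrichments of 3.10, 2.65, 3.10, 3.32 and 2.90.

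Peaks carry no strand, so signal at Pax5 cannot be told apart from signal at genes that share its body. Of the 14 Mof+/+ peaks, 7 also overlapped Gm12462, 1 of these also overlapped 4930517J16Rik, and the 4542 bp peak overlapped 5730488B01Rik. For the CpG-rich intron 5 peak the nearest start was that of Gm12462. For the 2 peaks in introns 7 and 8 the nearest start belonged to Mir5120, and 4930517J16Rik had the nearest start for the other 4 peaks of intron 5.

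In the Mof+/- list, 3 peaks remained at Pax5, all in its 5′ part, and they covered 2018 bp. Of these, 2 lay upstream (44712721 to 44713355, fold enrichment 4.45, 17 fragments, and 44711594 to 44712454, fold enrichment 4.66, 15 fragments), both inside the 3866 bp Mof+/+ peak. The other (44702413 to 44702934, intron 1, fold enrichment 3.99, 12 fragments) lay inside the 4542 bp Mof+/+ peak. This Mof+/- peak also overlapped 5730488B01Rik, whose start was the nearest to its summit. Its signal cannot be assigned to either gene. None of the 10 Mof+/+ peaks past the first 10 kb of the body overlapped a Mof+/- peak, which is the usual state, since 2.44% of all Mof+/+ peaks overlapped one. The closest of them lay 3117 bp from a Mof+/- peak. The strongest intron 5 peak was 30570 bp from the nearest Mof+/- peak.

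The sequences of 101 bases around the 3 Mof+/- summits assigned to Pax5 are shown because MOF was still called there. Of these, 2 lie upstream of the gene body. They are from the plus strand of GRCm38, with CpG sites in capitals. The first, at chr4:44712897-44712997, has 9 CpG sites, and those at chr4:44711615-44711715 and chr4:44702547-44702647 have 3 each. Over all Mof+/- summits the median for such a window was 3, with quartiles of 1 and 6.
Pax5 upstream, distal: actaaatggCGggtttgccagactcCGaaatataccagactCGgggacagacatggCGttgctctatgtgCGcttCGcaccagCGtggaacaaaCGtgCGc
Pax5 upstream, proximal: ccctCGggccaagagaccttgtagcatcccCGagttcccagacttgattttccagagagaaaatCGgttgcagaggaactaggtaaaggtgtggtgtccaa
Pax5 intron 1: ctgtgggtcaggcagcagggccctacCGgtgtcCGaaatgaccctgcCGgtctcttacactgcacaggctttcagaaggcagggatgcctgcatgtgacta

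Markers of B cells stood beside the Pax5 result. All 7 genes reported from a B cell list (Cd79a, Cd79b, Ms4a1, Cd22, Ebf1, Blk and Fcmr) had a Mof+/+ peak within 1 kb of a start site, and none had a Mof+/- peak. Ebf1 is also an adipocyte factor. The shares over all coding genes were 41.0% within 1 kb of a start in Mof+/+ and 1.89% by the assignment rule in Mof+/-, so a count of 0 in so short a list is near the background. By the assignment rule, 7 of 8 adipocyte markers had a Mof+/+ peak, the exception being Lep, beside 44.5% of coding genes. Within 1 kb of a start site, the measure used for the B cell list, 4 of the 8 did, beside 41.0%. None of the adipocyte markers had a Mof+/- peak, which is again near the background. Of 5 mesothelial markers Wt1 alone had a peak by the assignment rule, in both lists. The lists hold no expression values. In bulk tissue, fewer cells of a type and less MOF signal per cell cannot be told apart, and the part of B cell number in the Pax5 peaks was not tested.

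Pax2 and Pax8, the relatives of Pax5 that act in kidney and thyroid development, had few or no listed peaks. Pax2 (ENSMUSG00000004231.15, chromosome 19, 44756045 to 44837871, plus strand) had 1 Mof+/+ peak, 600 bp wide, at 44758261 to 44758860 in intron 1. Its edge lay 867 bp from a start site and its fold enrichment was 3.76 with 16 fragments. The region within 1 kb of the first Pax2 start holds 127 CpG sites, the most around the first start of any Pax gene, and no peak overlapped that start. Pax8 (ENSMUSG00000026976.15, chromosome 2, 24420560 to 24475599, minus strand) had no peak in either list. The nearest Mof+/+ peak lay 6558 bp downstream of the Pax8 body and had a fold enrichment of 2.65. In the Mof+/- list the nearest peaks were 398985 bp from a Pax2 start and 1187068 bp from a Pax8 start.

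Pax6 (ENSMUSG00000027168.21, chromosome 2, 105668900 to 105697364, plus strand), a master regulator of eye, brain and pancreatic islet development, had 7 Mof+/+ peaks that covered 5738 bp. At least 7 Mof+/+ peaks were found at 330 coding genes, and Pax6 had the highest density of the family at 24.6 peaks per 100 kb. Of the 7 peaks, 6 lay within 1 kb of an annotated Pax6 start site, but Pax6 has 24 such sites spread over its body, which makes that condition easy to meet. Going from 5′ to 3′, the fold enrichments were 3.10, 3.98, 4.65, 3.48, 4.20, 3.32 and 3.09, and the fragments at the summits were 13, 17, 20, 17, 18, 14 and 15. The 3 peaks that covered a start site were those at 105673116 to 105674685, 105674998 to 105676279 and 105681465 to 105681732, and they had the highest fold enrichments of the 7. The first peak overlapped the antisense gene Pax6os1, and its signal cannot be assigned to either gene.

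In the Mof+/- list Pax6 had 3 peaks covering 1002 bp. The strongest, at 105676704 to 105676961, had a fold enrichment of 5.52 with 17 fragments, the highest of the 8 Mof+/- peaks at Pax genes, and its summit in a UTR was 95 bp from that of the fourth Mof+/+ peak. The peak at 105684701 to 105685193 (fold enrichment 4.29, 13 fragments) overlapped the sixth Mof+/+ peak, with summits 107 bp apart. The peak at 105682072 to 105682322 (fold enrichment 3.60, 12 fragments) overlapped no Mof+/+ peak and was the only one of the 8 that did not. It lay 340 bp from the fifth Mof+/+ peak.

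The last 2 Mof+/- summits of Pax6 in the direction of transcription are shown over 101 bases of the plus strand of GRCm38 (chr2:105682151-105682251 and chr2:105684746-105684846), with CpG sites in capitals, since the former is the site seen in the Mof+/- list alone and the latter a shared one. They hold 5 CpG sites and 1 CpG site.
Pax6 Mof+/- alone: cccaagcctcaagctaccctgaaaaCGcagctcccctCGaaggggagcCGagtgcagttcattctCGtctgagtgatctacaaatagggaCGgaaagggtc
Pax6 shared: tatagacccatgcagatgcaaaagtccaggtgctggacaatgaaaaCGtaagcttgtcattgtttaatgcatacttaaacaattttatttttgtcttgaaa

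Pax4 (ENSMUSG00000029706.15, chromosome 6, 28442334 to 28449353, minus strand), the islet factor related to Pax6, had no peak in either list. It is the shortest Pax gene at 7020 bp and the poorest in CpG sites near its first start, with 11 within 1 kb against 40 to 127 at the others. The nearest Mof+/+ peak was 21829 bp from a Pax4 start, closest to the start of Gcc1.

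Pax3 (ENSMUSG00000004872.15, chromosome 1, 78101267 to 78197134, minus strand), a factor of neural crest and muscle precursors, had 2 peaks in each list, all at its 5′ end. In Mof+/+ the first (78195718 to 78197160, 1443 bp) covered the start site and had 20 fragments, for a fold enrichment of 4.65. The second (78194518 to 78195337) had its summit in coding sequence, a fold enrichment of 3.24 and 18 fragments. In Mof+/- the corresponding peaks were narrower, at 270 bp (78195962 to 78196231, intron 1, fold enrichment 3.99, 12 fragments) and 420 bp (78194798 to 78195217, intron 2, fold enrichment 4.91, 15 fragments). The summits lay 727 and 306 bp apart. At least 2 Mof+/+ peaks were found at 3831 coding genes (17.5%), so the count at Pax3 was common in that list, whereas 125 coding genes had at least 2 peaks in the Mof+/- list.

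Another Mof+/- site near Pax3 fell outside the assignment rule. This peak (78210250 to 78211487) was 1238 bp wide, lay 13116 bp upstream of the nearest Pax3 start and had a fold enrichment of 5.52 with 17 fragments. The Mof+/+ peak it overlapped was 484 bp wide with a fold enrichment of 2.56 and 14 fragments. The site was thus wider in the list of the heterozygous animals, and the nearest start site was that of Pax3. The fold enrichments of the lists rest on different input backgrounds and are not on a common scale.

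The 2 Mof+/- summits at Pax3 are shown over 101 bases of the plus strand of GRCm38 (chr1:78196076-78196176 and chr1:78194912-78195012), because Pax3 was the one Pax gene with Mof+/+ peaks that had as many peaks in the Mof+/- list. Capitals mark CpG sites, of which the first holds 5 and the second 1.
Pax3 intron 1: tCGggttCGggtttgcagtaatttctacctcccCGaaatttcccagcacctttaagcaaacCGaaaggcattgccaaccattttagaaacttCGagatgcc
Pax3 intron 2: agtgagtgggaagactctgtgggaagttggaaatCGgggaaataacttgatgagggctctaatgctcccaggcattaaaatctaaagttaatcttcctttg

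Pax7 (ENSMUSG00000028736.13, chromosome 4, 139737062 to 139833528, minus strand), the muscle stem cell factor closest to Pax3, had 1 Mof+/+ peak and no Mof+/- peak. The peak (139820981 to 139821263, 283 bp) lay in intron 4 at a distance of 11744 bp from any start, and its fold enrichment was 3.32 (14 fragments). Pax3 and Pax7 are of similar length, at 95868 and 96467 bp, yet Pax3 had a peak over its start and Pax7 had none. The region within 1 kb of the first start holds 87 CpG sites at Pax3 and 109 at Pax7.

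Pax9 (ENSMUSG00000001497.18, chromosome 12, 56691767 to 56712822, plus strand), which acts in tooth, thymus and vertebral development, had 2 intronic Mof+/+ peaks, 375 and 869 bp wide. Their fold enrichments were 2.65 and 2.93, both below the median of 3.40 over all Mof+/+ peaks, and their edges lay 2576 and 5188 bp from a start site. Pax1 (ENSMUSG00000037034.16, chromosome 2, 147361925 to 147393295, plus strand), its structural relative in vertebral and thymic development, had no peak in either list. The nearest peaks to a Pax1 start were 271132 bp away in Mof+/+ and 272732 bp away in Mof+/-. The nearest Mof+/- peak to a Pax9 start was 841009 bp away.

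The 3 kb limit left some peaks just outside. The upstream Mof+/+ peak at 3054 bp from a Pax2 start (fold enrichment 3.10) and that at 3690 bp from a Pax9 start (fold enrichment 3.54) were not assigned. The peaks assigned through the limit alone were those upstream of Pax5, at 218 bp in Mof+/+ (fold enrichment 5.53) and at 1107 and 2234 bp in Mof+/- (4.66 and 4.45).

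**Figure D2:**
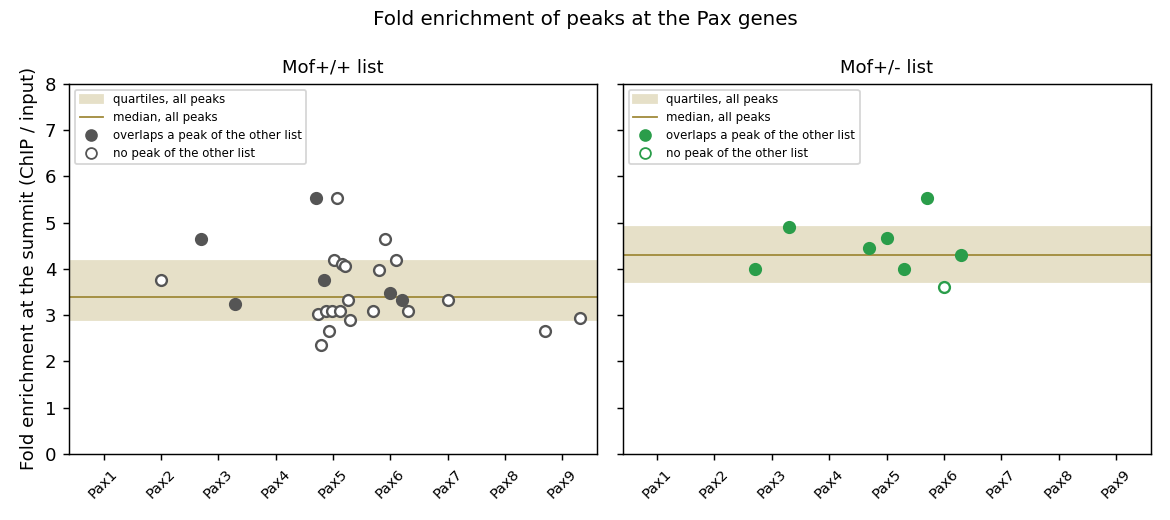
Fold enrichment of each peak at the Pax genes. The vertical axis is the ratio of ChIP to input background at the summit. Points are single peaks ordered from 5′ to 3′ within a gene, and filled points overlap a peak of the other list. The band and line give the quartiles and median of all peaks of the panel's list. Mof+/+ values run from 2.35 to 5.53 and Mof+/- values from 3.60 to 5.52. The 2 panels rest on different backgrounds and their heights are not on a common scale.

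The peaks at the Pax genes were of ordinary height for each list. Their median fold enrichment was 3.32 in Mof+/+ and 4.37 in Mof+/-, beside 3.40 and 4.29 over all peaks. Their median width was 680 bp in Mof+/+ and 456.5 bp in Mof+/-, beside 609 and 443 bp. The higher ratios in the Mof+/- list did not come with more fragments, since the median was 16 fragments at Mof+/+ summits and 14 at Mof+/- summits at the Pax genes. The lowest input background was 3.52 fragments in Mof+/+ and 2.26 in Mof+/-, so the same number of fragments gives a larger ratio in the latter. At that lowest background a Mof+/+ peak had a fold enrichment of at least 2.64 and a Mof+/- peak of at least 3.68. The weakest peak had a −log10 p-value of 3.25 in Mof+/+ and 4.72 in Mof+/-, and in both lists every peak whose fragments could be recovered had at least 11. A gene with no listed Mof+/- peak may thus carry signal below these limits, and the depth of each library is unknown from the lists.

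Of the 8 Mof+/- peaks at Pax genes 7 overlapped a Mof+/+ peak by at least 1 bp, and 84.8% of all 716 Mof+/- peaks on assembled chromosomes did so. In the other direction, 6 of the 27 Mof+/+ peaks overlapped a Mof+/- peak (2 at each of Pax3, Pax5 and Pax6), while 2.44% of all 19753 Mof+/+ peaks did. The 6 had a median width of 1358 bp, a median fold enrichment of 3.62 and a median of 35.5 CpG sites per kb. The other 21 had medians of 600 bp, 3.10 and 15.0 CpG sites per kb. A start site of the gene was within 3 kb of all 6, and of 10 of the 21. The ranges overlapped for every one of these measures, and wider peaks have more bases at which to overlap. Of the 21 without a Mof+/- counterpart, 13 had a p-value at least as strong as the weakest Mof+/- peak, and these included the strongest peak of Pax5 intron 5. The p-values of the lists rest on different input backgrounds and are not a like threshold. Whether these 13 sites could have been called in the Mof+/- list was not tested.

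**Figure D3:**
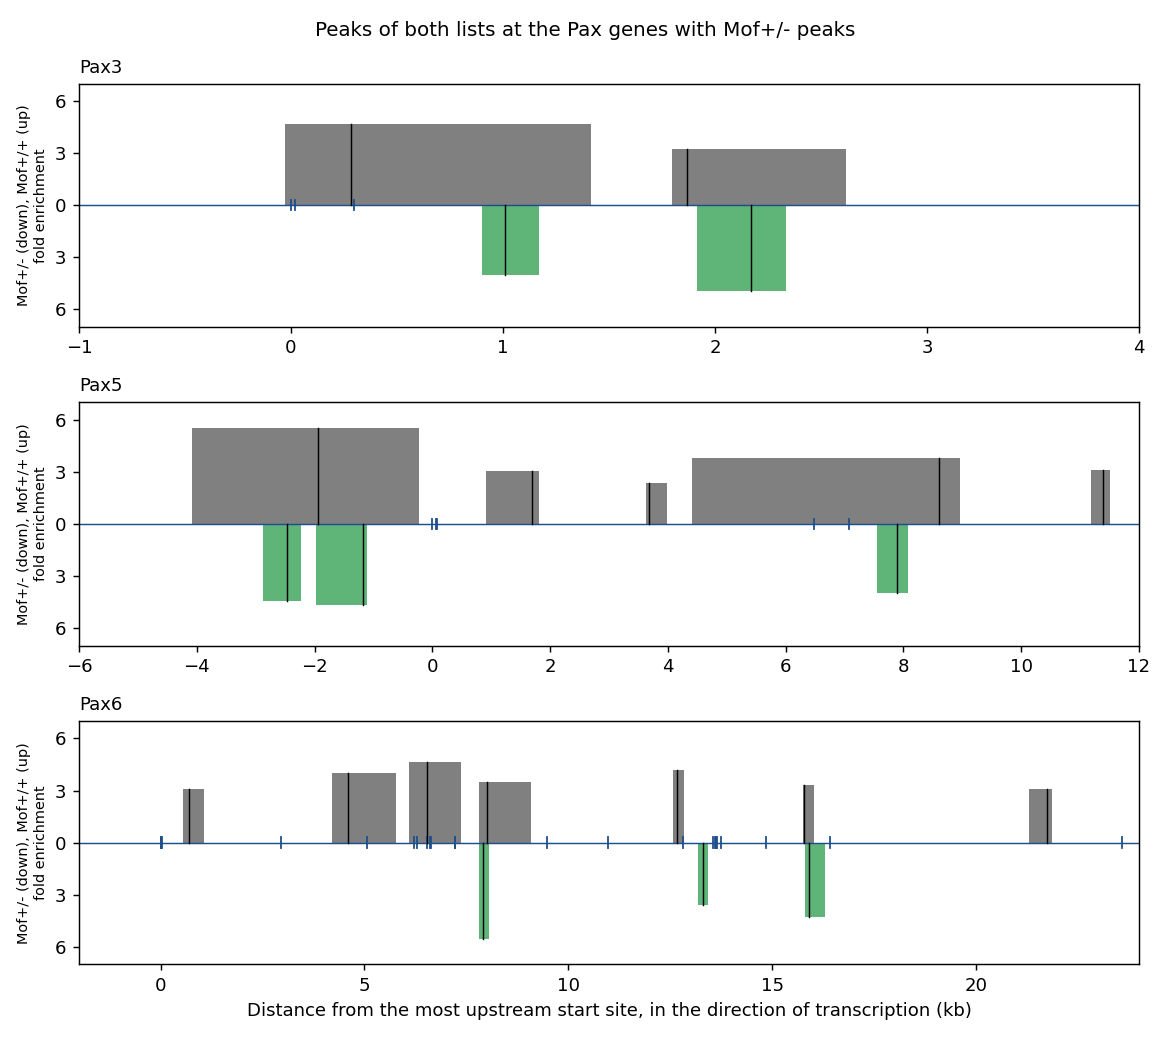
Peaks of both lists at the 5′ parts of Pax3 and Pax5 and over most of the Pax6 body. The horizontal axis is the distance in kb from the most upstream start site, bars span each peak, Mof+/+ fold enrichment points up in grey and Mof+/- fold enrichment down in green, black lines mark summits and blue ticks start sites. The 3 green bars of Pax5 lie under its 2 widest grey bars, and the middle green bar of Pax6 lies under no grey bar.

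Of the Mof+/+ peaks at Pax genes, 5 covered a start site of the gene and 16 lay within 3 kb of one. No Mof+/- peak covered a Pax start site, although all 8 lay within 3 kb of one and 5 within 1 kb. By the position of the summit, 21 of the 27 Mof+/+ peaks were intronic, 3 lay in UTRs, 1 in coding sequence, 1 in an exon of a noncoding transcript and 1 upstream. Of the 8 Mof+/- summits, 4 were intronic, 2 upstream, 1 in a UTR and 1 in a noncoding exon. Counting start sites of any gene, 21 of 27 and 8 of 8 lay within 3 kb of one, beside 67.1% of all Mof+/+ peaks and 76.4% of all Mof+/- peaks, and 6 of 27 and 1 of 8 covered one, beside 37.4% and 20.5%. With 8 peaks, the Mof+/- counts are too few to read a difference from these shares.

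Mof+/- peaks at Pax genes had a median of 41.7 CpG sites per kb, with a range of 14.3 to 66.1, and the median over all Mof+/- peaks was 33.1. For Mof+/+ peaks the medians were 18.6 at the Pax genes and 24.5 over all. Chromatin was cut with CviKI-1, an enzyme that recognises RGCY (a purine, then GC, then a pyrimidine), before sonication. The median density of RGCY sites was 22.0 per kb at the Pax genes and 21.2 over all in Mof+/+, and 14.6 and 13.4 in Mof+/-. The density of cutting sites thus differed between the lists at the Pax genes as it did over all peaks, and its part in the difference between lists was not tested.

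**Figure D4:**
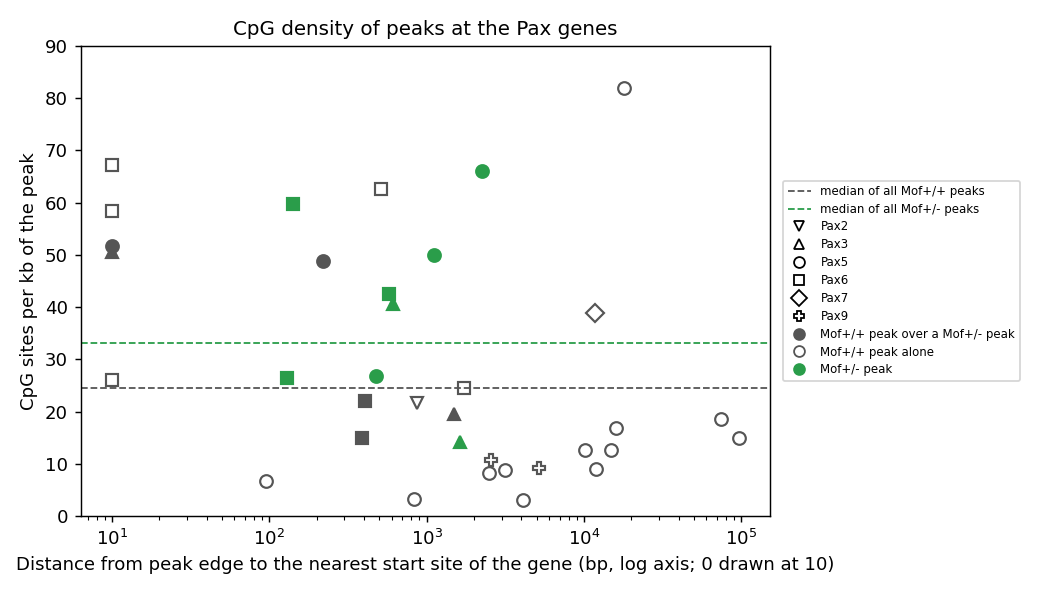
CpG sites per kb of each peak against the distance in bp from the peak edge to the nearest start site of the gene, on a log axis with peaks that cover a start drawn at 10. Marker shapes give the gene, green points are Mof+/- peaks, filled grey points are Mof+/+ peaks that overlap one and open grey points are the other Mof+/+ peaks, and dashed lines are the medians of all peaks of each list. Most open points beyond 1000 bp lie below the Mof+/+ median of 24.5, and the open circle at 81.9 is the CpG-rich peak in Pax5 intron 5.

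A core letter string of paired domain sites, GTCACGC, and one of homeodomain sites, TAATTA, were searched on both strands in 301 bp around each summit. GTCACGC was in none of the 27 Mof+/+ and none of the 8 Mof+/- windows at Pax genes, and in 1.98% and 1.12% of all windows. TAATTA was in 5 of the 27 (3 at Pax6, 1 each at Pax2 and Pax9), beside 3.91% of all Mof+/+ windows, and in 1 of the 8 (at Pax5), beside 7.26% of all Mof+/- windows.

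Ranked by covered bases among the 415 coding genes with a Mof+/- peak, Pax5 stood at 60, Pax6 at 124 and Pax3 at 168. Directly above Pax5 were Foxl2, a factor of ovary and eyelid development (2096 bp), and Tfap2c, a factor of trophoblast and germ cells (2058 bp). Directly below Pax5 were Aldh1a2, an enzyme that makes retinoic acid (1988 bp), and Gfi1, a repressor in blood cell development (1950 bp). In Mof+/+ these 4 genes had 2, 3, 1 and 5 peaks, while Pax5 had 14.

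Among the 17 reported genes for partners and cofactors that act with Pax proteins, 11 had a Mof+/+ peak, 10 of them within 1 kb of a start, and 1 had a Mof+/- peak. The shares over all coding genes were 44.5% and 41.0% in Mof+/+, and 1.89% in Mof+/-. Sox2, a partner of Pax6 in the lens, had 2 Mof+/+ peaks over 5029 bp and the 1 Mof+/- peak of the list, over 2097 bp. Tle3, a Groucho corepressor, had 5 Mof+/+ peaks over 6722 bp and no Mof+/- peak. Daxx, a histone chaperone that binds Pax proteins, had 6 Mof+/+ peaks over 3862 bp and no Mof+/- peak, and its peaks also overlapped Tapbp and Zbtb22 (1 peak each).

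Of the 20 reported target genes of Pax proteins, 9 had a Mof+/+ peak and 2 a Mof+/- peak, the 2 being Wt1 (a kidney and mesothelial factor) and Msx1 (a tooth and limb homeodomain factor). The Mof+/+ count was at the share over all coding genes (44.5%), and the Mof+/- share over all coding genes was 1.89%. Wt1 was covered over 1734 bp in Mof+/+ and 310 bp in Mof+/-, and Msx1 over 4618 and 1688 bp. All 3 reported Pax5 targets (Cd79a, Blnk and Ebf1) had a Mof+/+ peak and none had a Mof+/- peak, and 2 of these genes (Cd79a and Ebf1) are also on the B cell list. None of the 3 targets of Pax3 and Pax7 or the 5 targets of Pax4 and Pax6 had a peak in either list. Of the targets of Pax2 and Pax8 4 of 6, and of those of Pax1 and Pax9 2 of 3, had a Mof+/+ peak. The most covered targets in Mof+/+ were Tg, which encodes thyroglobulin (12 peaks, 8660 bp), Ebf1, a B cell and adipocyte factor (11 peaks, 8106 bp), and Cd79a, a B cell receptor component (2 peaks, 7114 bp). Of the 12 peaks at Tg 10 also lay in Sla, a gene inside the Tg body, and 1 of the 2 at Cd79a lay in Arhgef1, so these signals cannot be assigned to a single gene.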

How the data were processed

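MOF ChIP-seq of visceral white adipose tissue was analysed from 2 deposited peak lists, 1 per genotype. According to the study's methods, the authors mapped reads to GRCm38 with snakePipes and called peaks against input with MACS2 (2.1.1.20160309.3) at a q-value of 0.1. The deposited fold enrichment is a ratio of ChIP to input background at the summit, with the same small constant added to both. The summit's p-value and q-value were deposited as −log10 values of the same caller, as was the summit position. The integer score in each list was not used. Neither list names a library, and the lists were assigned to genotypes by name. No depth per library is given.

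Genes and start sites were taken from GENCODE M21, and sequences from the RefSeq GRCm38.p6 genome. A peak was assigned to a gene if it overlapped the body or lay within 3 kb of a start site, and overlap between lists required 1 bp. Peaks on unplaced scaffolds were left out of overlaps and sequence counts. Fragments and background at each summit were recovered from the fold enrichment and p-value as the whole number of fragments that gives both under a Poisson model, which succeeded for 19769 of 19773 Mof+/+ and 727 of 731 Mof+/- peaks. The steps were tested on simulated data. No test between genotypes was run.

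Named were all Pax genes, genes that share or neighbour a Pax peak, cofactors and targets with a Mof+/- peak or among the 3 with most Mof+/+ covered bases, and the 2 genes next to Pax5 on either side in the ranking. Marker genes are given by list, and the genes that share the bodies of Tg, Cd79a and Daxx were added after their values were seen. In each of the B cell, cofactor and target lists 1 gene is not reported here and is left out of the counts. The members and lists were chosen with earlier results of these data known. Alternatives were the q-value, the assignment window, the overlap rule and merging of neighbouring peaks. Python 3.11.15, pandas 2.3.3, scipy 1.17.1, pysam 0.24.0 and matplotlib 3.10.9 were used.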

Additional observations from a re-analysis of the deposited data

How the results depend on the processing

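The number of Pax genes with a peak was within 1.5 times its value under all alternatives tried: 4 to 6 genes in Mof+/+ and 3 in Mof+/-. Counts of peaks depended on the window and the q-value. The 27 Mof+/+ peaks became 13 at a q-value of at most 0.001, 12 within 1 kb of a start site and 16 within 3 kb without the gene body, and the 8 Mof+/- peaks became 4 and 5 under the first 2 of these. Overlap depended on its definition. Of the Mof+/- peaks 7 overlapped a Mof+/+ peak, which fell to 1 when 50% of both peaks had to be shared and to 4 at a q-value of 0.001, and the 6 overlapping Mof+/+ peaks became 1 and 3. Fewer peaks enter by construction under a stricter q-value or window. Of 48 alternative values 39 stayed within 1.5 times the reported one. Each genotype is represented by 1 list, so no value has a replicate error, and a peak missing from the Mof+/- list was not shown to be absent. No paired analysis was possible because the lists carry no replicate numbers and no value comes from a test.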
